A study of Mus musculus with 10 samples.

Results

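The p200 genes, also called the Ifi200 or HIN-200 genes, are a family of interferon-inducible genes that lie side by side on mouse chromosome 1. The 10 members described here (Aim2, Ifi203, Ifi204, Ifi205, Ifi206, Ifi207, Ifi209, Ifi211, Ifi213 and Mndal) were a given list, matched by symbol to the 20813 genes of the deposited table. All 10 were found, and all 10 passed the filter on low values that left 15276 genes for testing. They were measured by RNA sequencing of 10 leukemic spleens from C57BL/6 mice. Each recipient was a sublethally irradiated mouse injected intravenously with a T-cell acute lymphoblastic leukemia (T-ALL, a cancer of immature T cells) that carried a conditional knockout allele of Sirt1, a NAD-dependent deacetylase. In 5 spleens the mouse had received tamoxifen (3 mg per mouse, in corn oil, into the peritoneum) and the label reads Sirt1 deleted. In the other 5 the mouse had received corn oil only and the label reads Control. Both groups therefore carried the same conditional allele and the same irradiation. Deletion and exposure to tamoxifen coincide in every sample and cannot be told apart. The recombinase, the initiating oncogene, the ages of the mice and the number of independent leukemias are not given in the sources used here. Nothing states that the samples of a group came from separate leukemias, so p-values measure the spread between these 10 samples.

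Interferons bind receptors that activate Jak kinases and transcription factors such as Irf9, and the p200 genes are among the genes that this pathway switches on. Most p200 proteins pair an N-terminal pyrin domain, which binds other pyrin domains, with a HIN domain, which binds DNA. Aim2 is the family's cytosolic DNA sensor. On binding double-stranded DNA it recruits the adaptor encoded by Pycard and activates caspase-1. Other members are largely nuclear and have been studied in innate DNA sensing, cell growth and differentiation of myeloid cells.

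Before the p200 genes, the label was checked. Sirt1 stood at 1715 to 2097 normalized counts (mean 1873 ± 146, SD over 5 samples) among those labelled Sirt1-deleted and at 1735 to 1909 (mean 1810 ± 62.5) among controls. Its log2 difference was 0.05 (limma adjusted p = 0.568). The gene-level value thus did not show a loss of Sirt1 transcript. It sums all exons, and which exons the allele removes is not given. Every direction below is for the samples labelled Sirt1-deleted against controls. Samples are named by the number in their titles. Summed normalized counts were 33.7 to 34.5 M (M, mega) per sample, close to equal by construction. Within the labelled Sirt1-deleted group, samples 10 and 11 stood apart from samples 7, 8 and 12 in Ptcra and Rag1. These thymocyte-stage genes were picked after their values were seen, and their values are given beside Ifi204. All 14 T-cell markers examined were detected in all samples. Transcripts of spleen cells other than the leukemia were present as well. In bulk RNA, fewer cells of a type and less RNA per cell cannot be told apart.

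Most members of the family rose. Of the 10 genes, 7 rose (Ifi203, Ifi205, Ifi206, Ifi207, Ifi209, Ifi213 and Mndal), 2 fell (Aim2 and Ifi204) and 1 was not called (Ifi211) at a limma adjusted p under 0.05. Over all 15276 genes tested, 36.1% were called, 16.8% higher and 19.4% lower. The 2 falls among 10 members are thus near the share over all genes. The call of Ifi204 was also fragile, as given below. Control and labelled Sirt1-deleted values stayed apart for 5 members (Aim2, Ifi206, Ifi207, Ifi213 and Mndal), against 24% of all genes. The median log2 difference of the members was 0.64, beside -0.00014 for all genes tested. With samples 10 and 11 left out, a check added after the values were seen, the same 7 members rose. Sample 10 is the lowest of its group for each of them, so this result is no support for the rises. Ifi211 then passed as a fall as well, but samples 10 and 11 are its highest in that group, so this added call follows from leaving them out. Differences were taken between means of log2(value + 1), a scale on which changes of low genes come out too small.

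**Figure D1:**
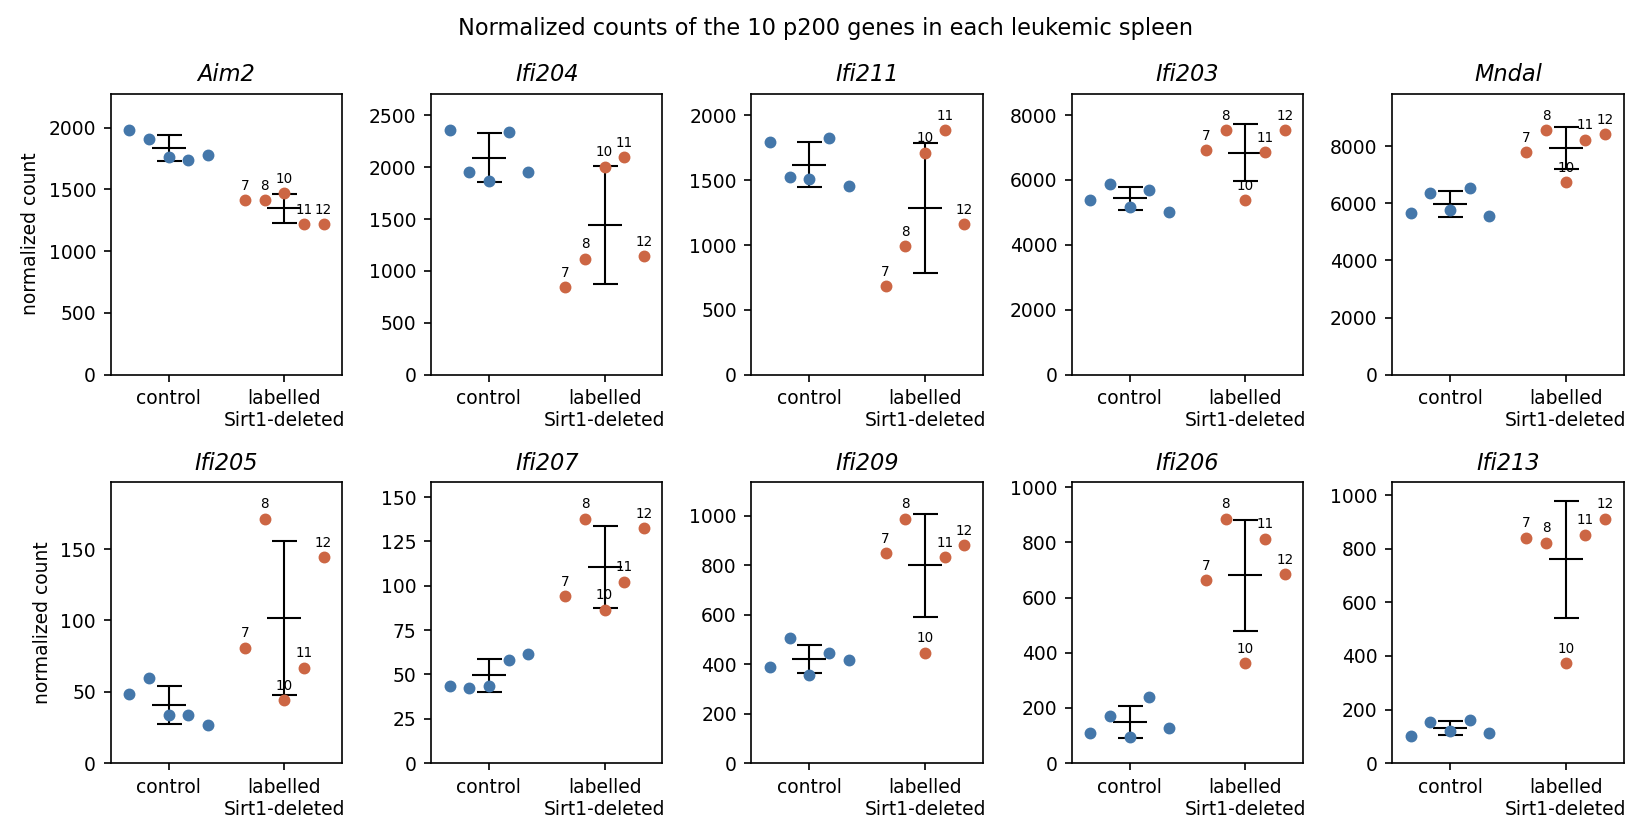
Normalized counts (vertical axes, each from 0) of the 10 p200 genes in 5 control samples (blue) and 5 labelled Sirt1-deleted samples (orange, numbered by title). Bars show the mean and SD. The groups do not overlap for Aim2, Mndal, Ifi207, Ifi206 and Ifi213, and sample 10 is the lowest of its group for all 7 genes that rose.

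Aim2 (ENSMUSG00000037860.15, chr1:173350879-173466040, plus strand, GRCm38) is the inflammasome-forming member and moved against most of its neighbours. Its normalized counts were 1414, 1413, 1470, 1218 and 1217 in labelled Sirt1-deleted samples 7, 8, 10, 11 and 12. Controls 2, 3, 4, 5 and 6 had 1980, 1910, 1763, 1741 and 1778. All 5 labelled Sirt1-deleted values were below the lowest control. The means were 1346 ± 120 and 1834 ± 105 (SD, n = 5 each), a log2 difference of -0.45 (SE 0.07, 95% interval -0.60 to -0.30; limma adjusted p = 8.50e-04). The exact two-sided permutation p was 0.00794, the smallest that 5 against 5 can give. Aim2 was also the steadiest member among the labelled Sirt1-deleted samples, with a coefficient of variation of 8.91% there and 5.70% in controls. Samples 10 and 11 did not stand apart for it, and its log2 difference without them was again -0.45.

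The genes of Aim2's partners, and of related inflammasome sensors and their products, gave a mixed picture. Of 14 such genes in the table, Aim2 aside, 13 were tested, of which 6 rose, 1 fell and 6 were not called. Over all genes tested, 16.8% were called higher and 19.4% lower. The adaptor gene Pycard rose by 0.32 (2940 ± 412 against 2346 ± 215, SD, n = 5 each; limma adjusted p = 0.0240). Caspase genes Casp1 and Casp4 rose by 1.07 and 1.02 on the log2 scale. Cytokine genes Il1b and Il18, whose products inflammasomes mature, rose by 1.54 and 1.23. The largest rise was that of Mefv, which encodes the sensor pyrin, at 1.65. All 5 of these rises were from low levels, with control means of 8.15 normalized counts for Mefv, 10.3 for Il1b and at most 33.1 for the others (Il18). Mefv passed the filter of a mean of at least 10 only through the labelled Sirt1-deleted samples, where its mean was 26.8, so its call is no support for a rise. Naip2, a sensor of bacterial secretion proteins, was the member that fell, by 0.46. Gsdmd, the pore-forming protein cleaved by caspase-1, had a log2 difference of 0.22 and was not called (limma adjusted p = 0.257).

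Ifi204 and Ifi211 formed a second pattern. Ifi204 (ENSMUSG00000073489.6, chr1:173747293-173766943, minus strand) encodes p204, a mouse protein studied as a DNA sensor. It had 844, 1119, 2005, 2095 and 1143 normalized counts in labelled Sirt1-deleted samples 7, 8, 10, 11 and 12, and 2357, 1951, 1869, 2339 and 1951 in controls 2 to 6. Samples 7, 8 and 12 were below every control, whereas 10 and 11 lay inside the control range. The means were 1441 ± 569 and 2094 ± 235 (SD, n = 5 each), for a log2 difference of -0.62 (SE 0.22, 95% interval -1.09 to -0.16; limma adjusted p = 0.0391; exact two-sided permutation p = 0.0794). This call was fragile. It was lost when any sample other than 10 or 11 was left out: the limma adjusted p was 0.0863, 0.0853 and 0.0882 without labelled Sirt1-deleted 7, 8 and 12. It was 0.0890, 0.0565, 0.0518, 0.0832 and 0.0579 without controls 2, 3, 4, 5 and 6. Without both 10 and 11 the log2 difference of Ifi204 was -1.02. Those are the samples of its group that lay inside the control range, so the larger fall follows from leaving them out and is no support for it.

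Ifi211 (ENSMUSG00000026536.9, chr1:173896345-173913046, minus strand), which RefSeq also lists as Mnda, had 683, 992, 1711, 1887 and 1162 normalized counts in the labelled Sirt1-deleted samples, in the same order. Controls 2 to 6 had 1793, 1526, 1507, 1823 and 1458. Sample 11 was above every control, sample 10 lay among them, and samples 7, 8 and 12 were below. The log2 difference of Ifi211 was -0.42 (SE 0.22, 95% interval -0.90 to 0.06; limma adjusted p = 0.157; exact two-sided permutation p = 0.151), so the 5-sample groups did not differ beyond their spread. Single samples moved it either way: it was -0.58 without sample 11 (limma adjusted p = 0.0396) and -0.22 without sample 7 (limma adjusted p = 0.351). Without both 10 and 11, its highest samples in that group, it was -0.80, a value that follows from which samples were left out. Ifi204 and Ifi211 varied together: their Pearson correlation across the 10 samples, with each group's mean removed, was 0.98. The pair shares libraries and scaling, and part of its transcript sequence, as described below.

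A pair of genes of early T-cell development, picked after their values were seen, split the same samples. Ptcra, which encodes the pre-T-cell receptor alpha chain, had 278, 284, 1171, 1157 and 351 normalized counts in labelled Sirt1-deleted samples 7, 8, 10, 11 and 12. Its controls spanned 488 to 668. Rag1, a recombinase of antigen receptor genes, had 2323, 2902, 4997, 4967 and 2404, against 4185 to 5443 in controls. Thus samples 10 and 11 were the high ones for Ptcra, Rag1, Ifi204 and Ifi211 alike. Both Ptcra and Rag1 are among the 14 T-cell markers examined, and the sum of that list did not split the samples this way. It was 168891, 176310, 178939, 178914 and 159888 in samples 7, 8, 10, 11 and 12, with sample 8 near 10 and 11. The other T-cell markers are not shown by sample here. The part of the Ptcra and Rag1 split in the Ifi204 and Ifi211 values was not tested.

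**Figure D2:**
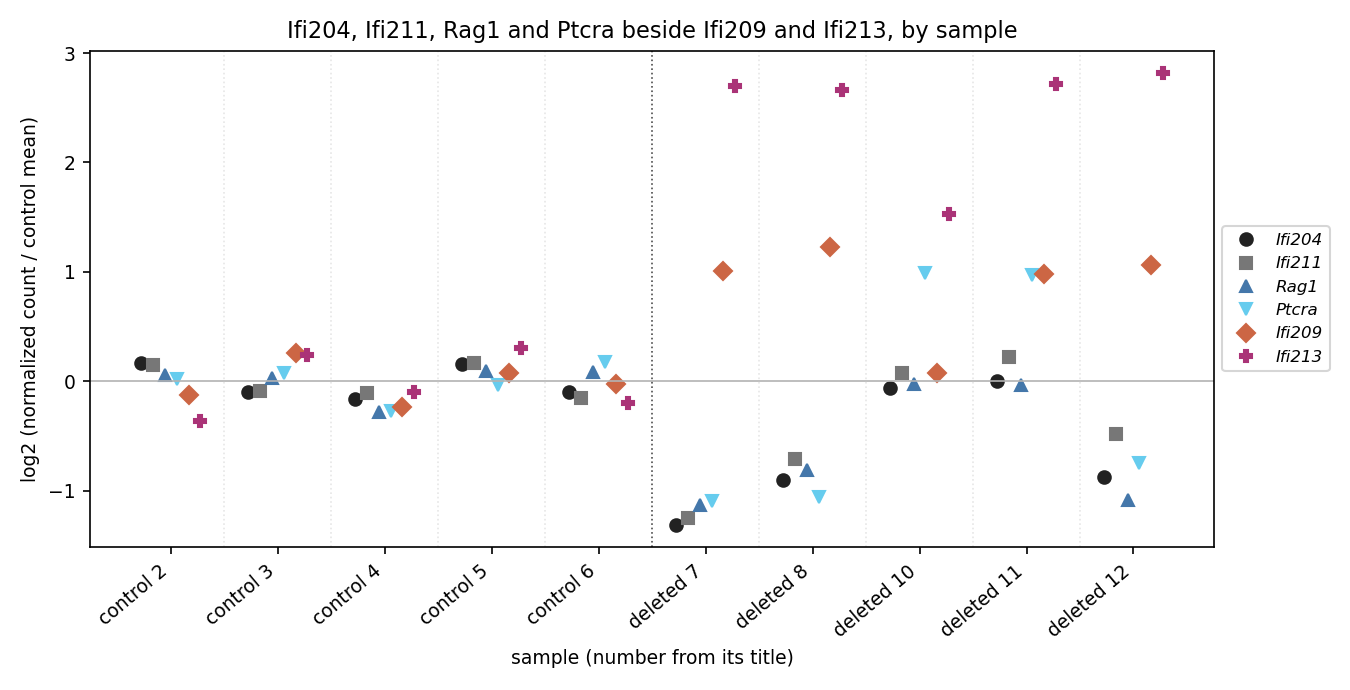
Log2 ratio of each sample's normalized count to the control mean (vertical axis) for Ifi204, Ifi211, Rag1, Ptcra, Ifi209 and Ifi213 in each of the 10 samples (horizontal axis; points are shifted sideways so that none is hidden). Ifi204, Ifi211, Rag1 and Ptcra are low in labelled Sirt1-deleted samples 7, 8 and 12 and not in 10 and 11, while Ifi213 is above every control in all 5.

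Ifi213 and Ifi206 rose most. Ifi213 (ENSMUSG00000073491.11, chr1:173566283-173599274, minus strand) had 841, 823, 373, 852 and 912 normalized counts in labelled Sirt1-deleted samples 7, 8, 10, 11 and 12. In controls 2 to 6 it had 100.5, 153, 121, 160 and 113. Every labelled Sirt1-deleted sample was above every control, sample 10 by the least. The means were 760 ± 219 and 130 ± 26.0 (SD, n = 5 each), a 5.86-fold higher level and a log2 difference of 2.50 (SE 0.23, 95% interval 2.01 to 2.99; limma adjusted p = 6.47e-05).

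Ifi206 (ENSMUSG00000037849.8, chr1:173468485-173491041, minus strand) had 663, 886, 361, 813 and 685 normalized counts in labelled Sirt1-deleted samples 7, 8, 10, 11 and 12, against 108, 170, 95.0, 240 and 129 in controls 2 to 6. Here too the groups did not overlap. Ifi206 was 4.59-fold higher (682 ± 201 against 148 ± 58.8, SD, n = 5 each), with a log2 difference of 2.21 (SE 0.27, 95% interval 1.63 to 2.80; limma adjusted p = 3.16e-04). When a size of at least 1 on the log2 scale was required as well, 4.48% of all genes were called, 3.95% higher and 0.53% lower, and among the members Ifi213, Ifi206, Ifi205 and Ifi207 rose and 0 fell.

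Ifi207 (ENSMUSG00000073490.11, chr1:173723427-173741747, minus strand) was a low-level member. Its normalized counts were 94.0, 138, 86.5, 102 and 132 in labelled Sirt1-deleted samples 7, 8, 10, 11 and 12, against 43.2, 42.2, 43.3, 58.1 and 61.4 in controls 2 to 6. All 5 labelled Sirt1-deleted values exceeded the highest control. The level of Ifi207 was 2.23-fold higher (111 ± 23.2 against 49.6 ± 9.30, SD, n = 5 each), with a log2 difference of 1.13 (SE 0.18; limma adjusted p = 0.00111).

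Ifi205 (ENSMUSG00000054203.7, chr1:174011998-174031810, minus strand), at the far end of the cluster, was the least even of the members that rose. It had 80.9, 171, 44.2, 66.7 and 144 normalized counts in labelled Sirt1-deleted samples 7, 8, 10, 11 and 12, and 48.4, 60.0, 33.7, 33.9 and 26.9 in controls 2 to 6. Sample 10 lay within the control range and the other 4 above it. The means of Ifi205 were 102 ± 53.9 and 40.6 ± 13.4 (SD, n = 5 each), a log2 difference of 1.19 (SE 0.35, 95% interval 0.43 to 1.95; limma adjusted p = 0.0191). Without labelled Sirt1-deleted sample 12 the limma adjusted p was 0.0504 and the log2 difference 1.02.

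Ifi209 (ENSMUSG00000043263.13, chr1:173630917-173647928, plus strand), also named Pyhin1, had 849, 989, 446, 834 and 881 normalized counts in labelled Sirt1-deleted samples 7, 8, 10, 11 and 12. Controls 2 to 6 had 387, 506, 359, 444 and 415. Sample 10 again fell inside the control range, and the other 4 were above every control. Ifi209 was 1.89-fold higher (800 ± 207 against 422 ± 56.7, SD, n = 5 each), with a log2 difference of 0.88 (SE 0.18, 95% interval 0.48 to 1.28; limma adjusted p = 0.00372).

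Mndal and Ifi203 were the most abundant members and rose by the smallest factors. Mndal (ENSMUSG00000090272.8, chr1:173849126-173942491, minus strand) had 7791, 8566, 6747, 8233 and 8424 normalized counts in labelled Sirt1-deleted samples 7, 8, 10, 11 and 12, and 5659, 6374, 5754, 6541 and 5562 in controls 2 to 6. Its lowest labelled Sirt1-deleted value, in sample 10, was just above the highest control. Mndal was 1.33-fold higher (7952 ± 734 against 5978 ± 447, SD, n = 5 each), with a log2 difference of 0.41 (SE 0.07; limma adjusted p = 0.00160). Ifi203 (ENSMUSG00000039997.16, chr1:173920407-173942672, minus strand) had 6921, 7535, 5371, 6857 and 7526, against 5391, 5881, 5169, 5686 and 5024 in the same order of controls. Again 4 samples were above every control and sample 10 was not. Ifi203 was 1.26-fold higher (6842 ± 883 against 5430 ± 355, SD, n = 5 each), with a log2 difference of 0.33 (SE 0.09; limma adjusted p = 0.0116).

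The summed level of the family changed by a smaller factor than most of its single genes. The members summed to 21322 ± 1859 normalized counts per labelled Sirt1-deleted sample and 17748 ± 1119 per control (SD, n = 5 each), a ratio of 1.20. Without Ifi203 and Mndal the sums were 6528 ± 863 and 6340 ± 486, a ratio of 1.03. Shares of the sum over all 10 members also differed. Ifi213 made up 3.52% ± 0.881 of the family's normalized counts against 0.728% ± 0.114 in controls, and Aim2 made up 6.38% ± 1.08 against 10.4% ± 0.747 (SD, n = 5 each). Within a sample, the ratio of Ifi213 to Ifi204 was 0.624 ± 0.324 against 0.0625 ± 0.0134 (SD, n = 5 each).

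To compare levels between genes, normalized counts were divided by the median length of each gene's protein-coding transcripts in GENCODE M21. In controls, the level per kb was highest for Mndal (3365 ± 251.6, SD, n = 5), followed by Ifi203 (1506 ± 98.4) and Aim2 (1300 ± 74.1). Ifi204 and Ifi211 came next, with nearly the same level per kb (912 ± 102 and 908 ± 96.7). Much lower were Ifi209 (123 ± 16.5), Ifi206 (85.4 ± 33.8), Ifi213 (48.4 ± 9.70), Ifi205 (25.2 ± 8.31) and Ifi207 (15.1 ± 2.83). Neighbours in this order overlapped in range for Ifi203 and Aim2, Ifi204 and Ifi211, Ifi209 and Ifi206, Ifi206 and Ifi213, and Ifi205 and Ifi207. In labelled Sirt1-deleted samples the first places held, with Mndal at 4476 ± 413 and Ifi203 at 1898 ± 245 per kb. Ifi206 (392 ± 116) and Ifi213 (284 ± 81.6) stood above Ifi209 (233 ± 60.1) there.

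Along the chromosome, the directions were interleaved only through Ifi204, whose call as a fall was fragile, and Ifi211, which was not called. The members span chr1:173350879-174031810, which is 680.9 kb of GRCm38. Aim2 lies at the start with a fall, followed by Ifi206, Ifi213, Ifi209 and Ifi207 with rises, Ifi204 with a fall, and Mndal, Ifi203 and Ifi205 with rises. Ifi211 lies inside the span of the longest Mndal model, and the model of Ifi203 overlaps Mndal on the same strand, so reads of these genes may be shared between them. Of the other p200 genes in the table, 2 of 2 tested rose. Ifi208, between Ifi209 and Ifi207, was at 956 ± 180 against 427 ± 26.3 (SD, n = 5 each), a log2 difference of 1.14 (limma adjusted p = 1.77e-04). Ifi214, between Ifi206 and Ifi213, was at 38.4 ± 8.45 against 12.5 ± 6.63 (log2 difference 1.65; limma adjusted p = 0.00229). The pseudogene Ifi203-ps was not called, with a log2 difference of 0.26 (limma adjusted p = 0.336).

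**Figure D3:**
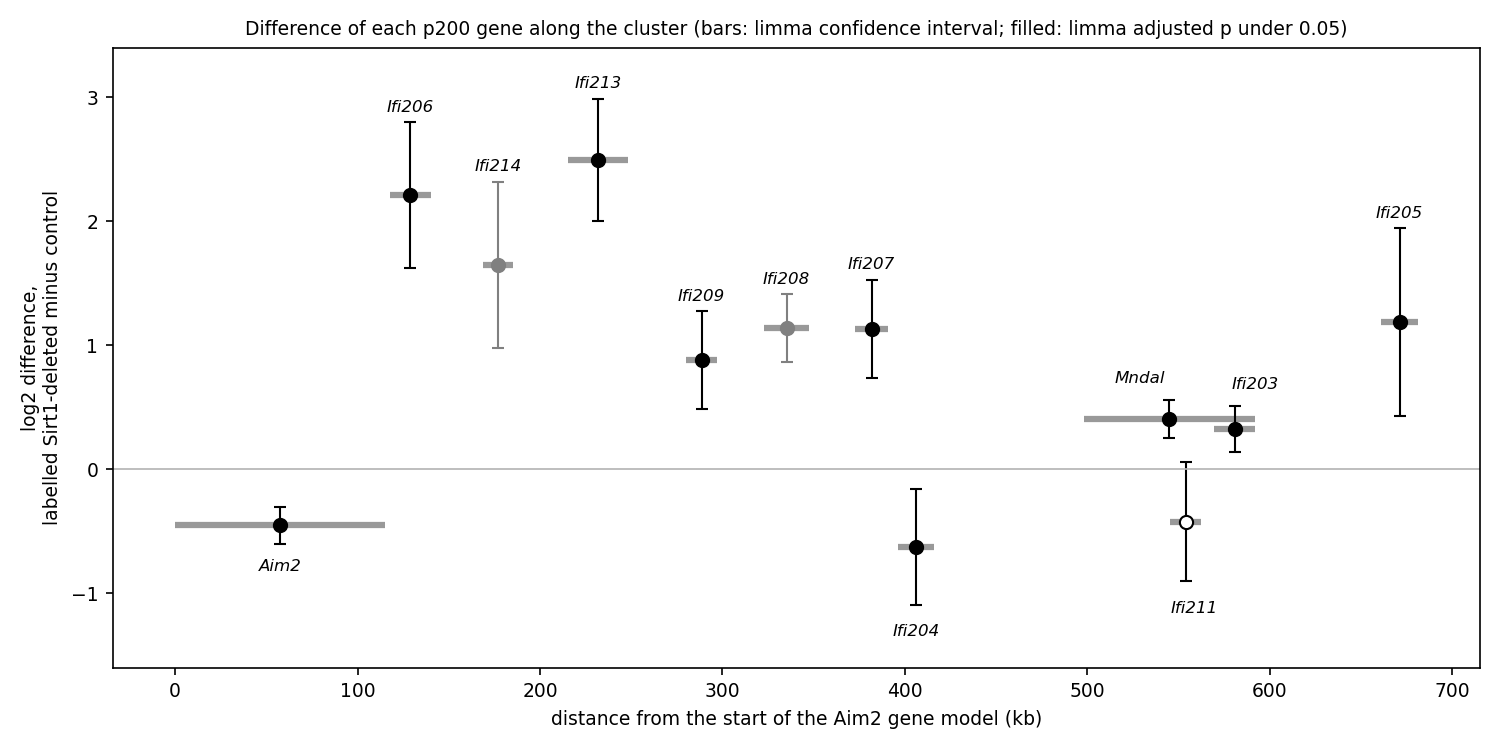
Log2 difference, labelled Sirt1-deleted minus control (vertical axis), of each p200 gene against its distance in kb from the start of the Aim2 gene model (horizontal axis). Grey horizontal bars are gene models, vertical bars are 95% intervals, filled points passed the limma test and grey points are the related genes Ifi208 and Ifi214. Aim2, at the left end, and Ifi204 and Ifi211, among neighbours that lie above 0, lie below it.

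Most members with a promoter entry held a match to an interferon-stimulated response element, a site bound by Irf9 and other Irf proteins. Its core was searched as GAAANNGAAA, on both strands, in the 250 bases before each start site in RefSeq (GRCm38.p6). Of the 10 members 9, all but Ifi204, had a promoter entry. A match was held by 7 of these: Ifi203, Ifi205, Ifi206, Ifi207, Ifi211, Ifi213 and Mndal. Over all promoters of the same length, 2.87% of 16652 held a match, which is 3.45% of 13260 genes counted once each, and 7 of 18 classical interferon-stimulated genes with an entry did. The Ifi211 promoter holds a match although Ifi211 was not called. Aim2, which fell, and Ifi209, which rose, had no match. A gamma-activated site, TTCNNNGAA, was found in 0 members, in 6.26% of all promoters and in 7.49% of genes. The windows below show how alike the sites are and where they differ. Each is 30 bases, 5′ to 3′ on the gene's strand, with the match in capitals.
Ifi213: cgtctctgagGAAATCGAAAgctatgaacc
Ifi208: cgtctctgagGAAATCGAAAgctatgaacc
Ifi206: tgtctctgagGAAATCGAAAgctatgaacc
Ifi214: agtctctgagGAAATCGAAAgcgatgcact
Ifi203: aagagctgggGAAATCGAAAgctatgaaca
Mndal: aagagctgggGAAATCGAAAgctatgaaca
Ifi207: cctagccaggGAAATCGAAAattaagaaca
Ifi211: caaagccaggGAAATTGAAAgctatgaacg
Ifi205: ccaggccaggGAAATTGAAAgctatgaaca
Ifi209: aatctctgagTAAATCGAAAgagatgcact
The line for Ifi209 is a near match with 1 substitution, G1T, counted from the first base of the core, and its capitals mark the aligned 10 bases.

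The windows lie at chr1:173599326-173599355 for Ifi213, chr1:173491339-173491368 for Ifi206, chr1:173942508-173942537 for Ifi203 and chr1:173880204-173880233 for Mndal, all on the minus strand. Those of the other members are at chr1:173741831-173741860 for Ifi207, chr1:173913064-173913093 for Ifi211 and chr1:174031870-174031899 for Ifi205, also minus. Ifi209 is on the plus strand at chr1:173630770-173630799. The match began 73 bases before the start site in Ifi213, 40 in Ifi206, 36 in Mndal, 35 in Ifi203, 37 in Ifi211, 41 in Ifi207 and 134 in Ifi205. Another Mndal promoter entry held a different match on the opposite strand, GAAAGAGAAA, 54 bases before its start site. Its window, chr1:173879993-173880022, is not among those shown. Ifi213 and Ifi208 have identical windows, Ifi206 matches them at 29 of 30 bases, and Ifi203 and Mndal are identical to each other and match Ifi213 at 23 of 30. The exact run GAAATCGAAAG, chosen after the windows were seen, was found in 6 of 13260 genes with a promoter entry, all of them p200 genes (Ifi203, Ifi206, Ifi208, Ifi213, Ifi214 and Mndal). In GENCODE M21 the Mndal window lies in an exon of Mndal annotated as untranslated, the Ifi211 window in an intron of the long Mndal model and the Ifi203 window in an intron of Ifi203. The windows of the other members lie outside gene models. A match describes letters in a window and does not show binding.

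The shared ancestry of these genes also bears on how their reads can be told apart. Each gene's transcripts in GENCODE M21 were broken into words of 31 bases, the unit that kallisto matches by default, and the share of words found in no other gene was counted. It was 95.1% for Aim2 and 85.2% for Ifi207, and between 52.8% and 78.4% for 7 further members. Ifi211 had the lowest share, 21.1%. It shares 49.5% of its words with Ifi205, 38.6% with Ifi204 and 25.2% with Mndal. The division of reads between Ifi211, Ifi204 and Ifi205 is therefore uncertain. Summed, these 3 genes had 2830 ± 1036 normalized counts per labelled Sirt1-deleted sample and 3755 ± 406 per control (SD, n = 5 each; the log2 difference -0.48; limma adjusted p = 0.0843). With Mndal added to that sum the log2 difference was 0.15 and was not called (limma adjusted p = 0.120). In the pairs Ifi213 with Ifi208 and Ifi209 with Ifi214, which share many words, both genes rose singly, so their sums could only rise. The log2 differences of the sums were 1.59 for Ifi213 with Ifi208 (limma adjusted p = 9.75e-05) and 0.91 for Ifi209 with Ifi214 (limma adjusted p = 0.00263). These sums do not show how reads divide within a pair.

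**Figure D4:**
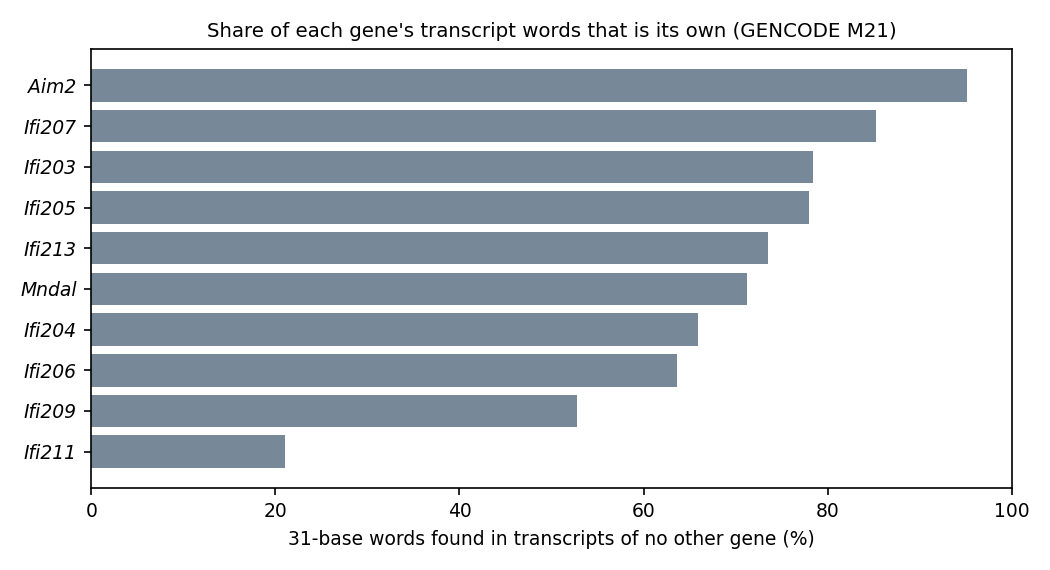
Share of each member's 31-base transcript words (horizontal axis, percent) that occur in transcripts of no other gene of GENCODE M21. Bars start at 0. Aim2 is nearly all its own at 95.1%, and Ifi211 is the least distinct at 21.1%.

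Genes around the p200 family in the interferon pathway were described from lists. The counts below stand beside 16.8% called higher and 19.4% called lower over all genes tested. Of 25 classical interferon-stimulated genes, 23 rose and 2 were not called, with a median log2 difference of 1.61. Examples are the antiviral genes Ifit1 (3.26), Oas2 (3.09) and Mx2 (2.72). The rises of Ifi213 and Ifi206 lie above the median of that list, and those of Ifi205, Ifi207, Ifi209, Mndal and Ifi203 lie below it. Among 10 signalling genes, 6 rose and 2 fell. Irf7, the amplifier of type I interferon, rose by 2.11, and Irf9 rose by 1.04. The kinase genes Jak2 and Jak1 fell by 0.45 and 0.35.

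Of 4 receptor genes, Ifngr2 rose by 0.39, Ifngr1 fell by 0.42, Ifnar1 fell by 0.19 and Ifnar2 was not called (log2 difference 0.02; limma adjusted p = 0.857). Of 6 inhibitors of the pathway 4 rose, among them Usp18 (1.83) and Socs3 (0.92), and 1 fell, the phosphatase gene Ptpn6 (-0.28). Of 12 other DNA-sensing and nucleic acid-clearing genes 5 rose, with Zbp1 (1.35) and Samhd1 (1.20) the largest, 2 fell and 5 were not called. Cgas, the sensor that makes the messenger of the STING pathway, rose by 0.21. Tmem173, which encodes STING, was not called (log2 difference -0.14; limma adjusted p = 0.111). Of the interferon genes listed, Ifng was in the table, below the filter on low values at 7.57 against 4.44 normalized counts.

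Sample 10 held the lowest value of its group for each of the 7 members that rose. It was also the lowest of its group for the sum of the classical interferon-stimulated genes (27292, against 39509 to 44367 in the other 4 and 15220 to 18317 in controls). Most markers of neutrophils and macrophages rose, and for no other cell type examined were most of the tested markers called. Over all genes tested, 16.8% were called higher and 19.4% lower. The 14 neutrophil markers summed to 28974 to 99982 normalized counts in labelled Sirt1-deleted samples and 9166 to 12658 in controls, and 13 of the 14 rose. The 16 macrophage markers summed to 7288 to 13384 against 3543 to 4043, and 13 of the 16 rose. None of the neutrophil or macrophage markers was at 0 in any sample, and sample 10 had the lowest of both sums in its group. The other samples of the group did not keep 1 order. Sample 11 had the highest interferon-stimulated sum (44367) but a neutrophil sum of 39751, below samples 7, 8 and 12. Sample 8 had the highest neutrophil sum (99982) and an interferon-stimulated sum of 40936. Of 14 T-cell markers 5 fell and 1 rose, and their sum was 159888 to 178939 against 182179 to 197228. Of 8 dendritic cell markers tested 2 rose, Itgax and Siglech. Of 10 B-cell markers tested 1 rose and 0 fell. Of 5 NK-cell and 10 erythroid markers tested, 0 rose and 0 fell. Of 6 stromal and endothelial markers tested, 0 rose and 2 fell. The 10 such markers in the table summed to 4916 to 5410 against 5670 to 6603. The groups thus did not overlap for the T-cell sum or for the stromal and endothelial sum. Myeloid cells are known to express p200 genes, and their part in the differences of the members was not tested.

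Across the 10 samples, with each group's mean removed, the members that rose varied together in part. The highest Pearson correlations were 0.94 for Ifi203 with Ifi209, 0.93 for Ifi203 with Mndal and 0.92 for Ifi213 with Mndal. The lowest was 0.38, for Ifi205 with Ifi207. Sample 10 was the lowest of its group for all 7, and its weight in these values was not tested. Aim2 followed none of the 7, with correlations of -0.56 to 0.01. The genes outside the family whose pattern was most like the mean of the 10 members, among genes with a mean of at least 100, were Parp12 (0.92), Cd74 (0.91), Pigv (0.90), Ifit3 (0.88) and Gbp2 (0.87). Of these, Pigv fell between the groups, by 0.37 on the log2 scale. These correlations are a description over 10 samples that share scaling and tissue.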

How the data were processed

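RNA from 10 leukemic spleens was sequenced from strand-specific Illumina libraries after red cell lysis and column extraction, per the labels' protocols. Kallisto 0.44.0, DESeq and the mm10 build were used, per the submitters' processing notes. The transcript index and any gene filter are not given in the sources used here. The deposited table holds 1 normalized signal per gene and sample, which are counts that the authors divided by DESeq size factors, and 0 columns outside the 10 samples. Low values lay within 0.1 reads of a whole multiple for 68.0% to 74.0% of values up to 8.5 reads, so reads were not recovered, no count test was run, and the depth of 31.4 to 38.5 M reads is approximate.

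Here log2(value + 1) was fitted for 15276 genes with a mean of at least 10, using limma 3.58.1 in R 4.3.3 with a group term and an intensity trend. P-values were adjusted over all of them by the Benjamini-Hochberg method at 0.05. The script was tested on simulated data. Single values were also compared by exact two-sided permutation over all assignments of the samples to groups of 5. The genes named are all members, at most 8 per other list with the largest calls first, uncalled genes on which a result turns, Sirt1, and the 5 outside genes most like the members. The members and lists were chosen with earlier results of these data known. Some listed genes are not reported here. Coordinates, transcript lengths and 31-base words came from GENCODE M21 (GRCm38), and promoters from RefSeq (GRCm38.p6); whether the authors used that annotation is not known. Ifi202b was not analysed here. Alternatives were other pseudocounts, filters, scalings, limma settings, tests and thresholds, and leaving out each sample. Leaving out samples 10 and 11 together and summing similar genes were added after the data were seen.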

Additional observations from a re-analysis of the deposited data

Results flagged for a closer look

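Among 22 sets of 5 values checked (each member and Sirt1 in each group), 2 had a sample farther from the others than Dixon's 95% critical value of 0.71, where chance gives about 1 in 20, or 1.1. Both were labelled Sirt1-deleted sample 10. For Ifi213 it was lowest at 373 normalized counts, with 823 to 912 in the other 4 (ratio of gap to range 0.834). For Ifi209 it was lowest at 446, with 834 to 989 in the others (ratio 0.713).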

How the results depend on the processing

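No paired analysis was possible because sample numbers differ between labelled Sirt1-deleted and control titles. Aim2, Ifi203, Ifi206, Ifi207, Ifi209, Ifi213 and Mndal kept their direction and call in all 9 limma alternatives that kept all samples and genes. The same held in all 10 limma fits that left out 1 sample. These fits used the threshold of 0.05. The exact rank-sum test and the stricter thresholds, given below, called fewer members. Ifi204 lost its call under upper-quartile rescaling (-0.56, limma adjusted p = 0.0530), quantile normalization (-0.57, 0.0564) and limma without trend (0.0783), so 1 member was lower under each. Ifi211 passed with limma sample weights (-0.61, adjusted p = 0.0314). The exact rank-sum test called 4 members higher and 1 lower, and 1691 and 1968 of all genes. An adjusted p under 0.01 left 5 members higher and 1 lower, and 1328 and 1522 of all genes higher and lower. A log2 difference of at least 1 left 4 members higher and 0 lower, and 603 and 81 of all genes. Leaving out 1 sample gave 6 to 7 members higher and 1 to 3 lower, and 1975 to 2920 genes higher and 2232 to 3339 lower, beside 2562 and 2956. The log2 difference of Sirt1 then ranged from 0.00482 to 0.0774. Member sums were 20913 to 21999 and 17419 to 18056 without 1 sample, and 13370 and 11770 without Mndal. Summed with genes sharing at least 10% of 31-base words, Ifi204 and Ifi211 turned to 0.15 (adjusted p = 0.120), Mndal and Ifi205 lost their call in the same sum, and Ifi205 turned to -0.48 at 30% (0.0843); these sums hold the larger Mndal, or Ifi204 and Ifi211. Upper-quartile rescaling moved the median of all genes to 0.06 and the share of calls that were higher from 46.4% to 58.5%. Depth is approximate, so no counting intervals were given.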
